A study of Mus musculus with 6 samples.

Results

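The members described here are the nuclear genes of the mitochondrial respiratory chain, of cytochrome c and of ATP synthase that the mRNA probes of a mouse lncRNA and mRNA array carry. Probes were named through their RefSeq accessions. A probe was a member where its gene symbol began with Ndufa, Ndufb, Ndufc, Ndufs or Ndufv and a digit, with Uqcr, with Cox4 to Cox8 or with Atp5, or was one of Sdha, Sdhb, Sdhc, Sdhd, Cycs and Cyct. This gave 94 probes for 86 genes, of 22464 mRNA probes for 19049 named genes. Complex I had 37 genes, complex II 4, complex III 8, complex IV 18, cytochrome c 2 and ATP synthase 17.

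The study compared testes of male C57BL/6 mice at 6 days of age (neonatal) and at 8 weeks of age (adult), with no other treatment or genotype. RNA of whole testis was labelled in 1 colour, and each age had 3 arrays. Each array stood for 1 of 3 sets of mice of its age, so it can hold RNA of several animals. With 6 arrays in all, the number of arrays limits the precision of every value.

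The respiratory chain passes electrons from NADH and succinate through complexes I, II and III to cytochrome c and on to complex IV, cytochrome c oxidase, which reduces oxygen. ATP synthase makes ATP from the proton gradient that results. Most of the nuclear genes of the chain serve nearly all tissues, but some small subunits of complex IV and cytochrome c itself exist as isoforms from separate genes. In the testis, Cox6b2, Cox7b2, Cox8c and Cyct are known as isoforms of male germ cells, beside the somatic Cox6b1, Cox7b, Cox8a and Cycs.

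Signals were scaled by the 75th percentile of the array they came from, floored at -7.22 on the log2 scale and are called normalized log2 signal here. The 75th percentile of the neonatal arrays was 2947, 2503 and 1385 for replicates 1 to 3, and that of the adult arrays 1856, 1425 and 747.3. Replicate 3 of each age stood apart. Its arrays shared a slide of their own, slide 2, and the scanner software marked 72 and 68 of the 94 member spots there as outliers, in the neonatal and the adult array. On slide 1 these counts were 22 and 23 in neonatal replicates 1 and 2 and 16 on each adult array. Among all mRNA probes the share of outlier-flagged spots was 40.6% and 31.9% on slide 2, and between 7.61% and 14.2% on slide 1. A member was therefore more often outlier-flagged than an mRNA probe at large on each of the 6 arrays.

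The labelled tissue was checked against cell type markers. The summed scaled signal of 6 spermatid markers (Prm1, Prm2, Tnp1, Tnp2, Acrv1 and Odf1) was 0.474, 0.460 and 0.559 at 6 days and 1093, 1314 and 1505 at 8 weeks. The brightest on average was Tnp1 in neonatal and Prm2 in adult testis. The sum of 6 spermatocyte markers, led by Sycp1 in neonatal and Piwil1 in adult testis, was 16.7, 13.8 and 10.4 in neonatal and 105, 120 and 124 in adult testis. Spermatogonial and Sertoli cell markers had the opposite order. Their sums went from 106, 113 and 97.3 to 21.0, 22.2 and 16.0 for 6 spermatogonial markers, led by Uchl1, and from 61.3, 63.2 and 47.3 to 13.8, 10.1 and 11 for 5 Sertoli cell markers, led by Wt1 on average. Gfra1, a marker of undifferentiated spermatogonia, was well above background on 0 of 6 arrays. With outlier-flagged spots kept, all 6 spermatid probes and 6 of 8 spermatocyte probes were called higher in adult testis, and all 6 tested spermatogonial and all 5 Sertoli cell probes lower. Both ages thus carried testis markers, and the germ cell markers separated them. In whole tissue, fewer cells of a type and less RNA per cell cannot be told apart. These marker lists moved with the results given here, and their part in the results was not tested.

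The ages were compared by limma, blocked by replicate number, over the lncRNA and mRNA probes that at least 1 array measured well above background. Spots with an outlier flag did not enter, and a probe entered with at least 2 complete pairs. Most tested members had an outlier-flagged spot in replicate 3, so their fitted values rest on the 2 pairs on slide 1. Among called members this held for Cyct, Ndufa4l2, Ndufa12, Ndufc1, Cox7a1, Ndufb11, Ndufa2, Sdha and Atp5c1 (NM_001112738). It also held for several comparison genes, Idh2, Gabpb1 and Ldhc among them. The signals of all arrays are given for each of these genes. A probe was called where its Benjamini-Hochberg adjusted p was at most 0.05 and its fold change at least 2, and a fold change of at least 5 was counted as well. Of the 94 member probes, 63 could be tested (58 genes). Outlier-flagged spots left 29 probes untested, and 2 probes, for Ndufa13 and Cox7a2, were never well above background. Values with the outlier-flagged spots kept, for 92 member probes, are given beside the others and named as such.

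Calls among the members are given beside those among all mRNA probes. At a fold of 2, 6 of 63 member probes were higher in adult testis and 11 were lower, while 23.3% of all 15121 tested mRNA probes were higher and 36.6% lower. At a fold of 5, 3 member probes were higher and 4 lower, against 12.6% and 13.7% of mRNA probes. When outlier-flagged spots were kept, 9 of 92 member probes were higher and 17 lower, against 23% and 39% of 19310 mRNA probes. At a fold of 5 these counts were 5 and 6, against 12.8% and 15.4%. The calls at a fold of 5 took in members that are neither isoforms nor somatic counterparts, which were Ndufv3 in the former fit and Ndufv3, Ndufs6 and Ndufs8 in the latter. Within a 2-fold change lay 46 of 63 members (73%), and 39.1% of all mRNA probes. Without probes that gave no fold, 2 of them members, these were 44 of 61 (72.1%) and 37.8%. The median absolute log2 fold change was 0.45 for the members and 1.33 for all mRNA probes.

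The signed median of the members depended on the scaling between arrays. It was 0.09, while the median of all mRNA probes was -0.40. Scaling to mRNA probes detected on all arrays moved the median of all mRNA probes to 0.03, and quantile normalization, which the methods name, moved it to -0.73. The members' median turned from 0.64 in the former to -0.62 in the latter. Relative to the median of all mRNA probes, the members lay 0.49 higher with the scaling used here, 0.61 higher with the former and 0.11 higher with the latter. They lay 0.12 higher after normexp background correction and 0.095 higher with no filter on dim probes. Without replicate 1 they lay 0.07 lower, and without replicate 2 0.10 higher. The split of calls moved with it, from 6 higher and 11 lower members (35.3% higher) to 17 higher and 6 lower (73.9%) and to 5 higher and 21 lower (19.2%). Of the calls among all mRNA probes, 39.0%, 53.9% and 32.8% were higher in these fits, so the split moved there too. Scaling to detected mRNAs called 29.8% of all mRNA probes higher and 25.5% lower, and quantile normalization 21.2% and 43.3%, shares that stand beside each later count under these scalings. Changes of less than about 2-fold are therefore given as values without a direction. Leaving out replicate 1 or replicate 2 left 16 and 15 testable members, of which 2 were higher and 4 lower in each case, because most spots of replicate 3 were outlier-flagged. Within each replicate pair, with these spots kept, the members' median log2 difference was 0.09 and 0.01 on slide 1 and -0.04 on slide 2, and that of all mRNA probes was -0.47, -0.51 and -0.49.

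**Figure D1:**
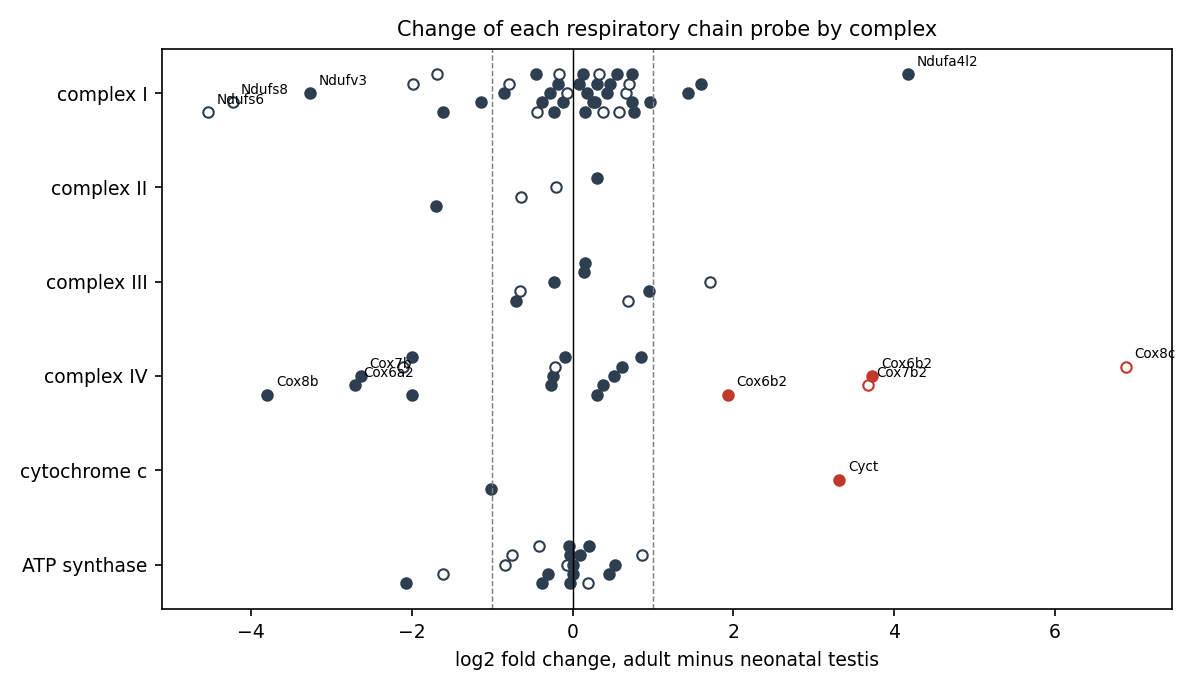
Log2 fold change of each member probe, adult minus neonatal testis, by complex, with filled points tested with outlier-flagged spots left out and open points only with them kept. Red marks the testis isoforms, between 1.93 and 6.89, and the points between the dashed lines, a 2-fold change, turned in part with the scaling.

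The testis isoforms were measured on 5 probes, all well above background on all 6 arrays. Cox6b2, a small subunit that lies at the interface of the complex IV dimer, had 2 probes. On the probe for NM_183406, Cox6b2 had a normalized log2 signal of 2.29, 2.43 and 3.29 on the neonatal arrays and 6.14, 6.06 and 7.0 on the adult arrays, in the order of the replicates here and in what follows. Every adult array lay above every neonatal array, and slide 2 was the brightest within each age. The log2 fold change was 3.73 (± 0.11 SE at a limma adjusted p of 0.00013). The probe for NM_183405 gave lower signals, -3.61, -3.68 and -3.42 in neonatal and -1.35, -1.89 and -1.68 in adult testis, again without overlap. Its log2 fold change was 1.93 (± 0.15 SE at an adjusted p of 0.000822), so the 2 probes of this gene had the same direction and unequal size.

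Cyct, the testis form of the electron carrier cytochrome c, had 2.07, 2.28 and 2.13 in neonatal and 5.40, 5.58 and 5.81 in adult testis. The ages did not overlap, and the spread within an age was small beside the difference. Cyct rose by a log2 fold change of 3.32 (± 0.14 SE at a limma adjusted p of 0.000658), from the 2 pairs on slide 1. Cox7b2 and Cox8c, testis forms of small transmembrane subunits of complex IV, had too many outlier-flagged spots for the test. Cox7b2 had 1.29, 1.26 and 1.00 in neonatal and 5.06, 4.81 and 4.70 in adult testis, and outlier-flagged were neonatal replicates 2 and 3 and adult replicate 3. Cox8c had 0.26, 0.23 and -1.18 and 6.70, 6.87 and 6.40, with neonatal replicates 1 and 3 and adult replicate 3 outlier-flagged. For both genes each adult array lay far above each neonatal array, and the neonatal replicate 3 was the lowest. With these spots kept, Cox7b2 had a log2 fold change of 3.68 (± 0.12 SE at a limma adjusted p of 5.08e-05) and Cox8c one of 6.89 (± 0.27 SE at an adjusted p of 7.97e-05). All 3 tested probes of testis isoforms, and all 5 with outlier-flagged spots kept, were higher in adult testis with the scaling used here and with quantile normalization. The 3 were also higher under each other scaling and with normexp background correction.

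The somatic counterparts were lower in adult testis with the scaling used here. Cox8a had 5.46, 5.64 and 6.46 in neonatal and 3.51, 3.56 and 4.50 in adult testis. Slide 2 was brighter at each age, and the ages did not overlap. Cox8a fell, with a log2 fold change of -1.99 (± 0.10 SE at a limma adjusted p of 0.0003). Cox6b1 had 4.44, 4.71 and 4.77 in neonatal and 2.67, 2.80 and 2.12 in adult testis, but all 6 spots were outlier-flagged. With the spots kept its log2 fold change was -2.11 (± 0.22 SE at an adjusted p of 0.00107), and no adult array reached a neonatal one. Cox7b, which is X-linked, had -4.0, -3.89 and -3.23 in neonatal testis and -6.34, -6.71 and -5.98 in adult testis, where it was well above background on 0 of 3 arrays. Its change has therefore only a bound, which sets the mean of the brighter age against the dimmer arrays. Each dimmer array is taken at its lowest signal well above background or at the signal of the probe itself, whichever is higher. By this measure Cox7b was at least 6.00-fold lower in adult testis (log2 fold change -2.64, adjusted p = 0.000333 from limma). With normexp background correction it had a log2 fold change of -0.43, under the fold threshold. This bound and those given later, of isoform shifts too, therefore hold only with the scaling and background subtraction used here.

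Cycs, the cytochrome c of somatic cells, was dim on this probe. It had -4.76, -4.64 and -5.30 in neonatal testis and -5.34, -5.45 and -6.96 in adult testis, where 2 of 3 arrays were well above background. The ages did not overlap, but neonatal replicate 3 lay close to adult replicate 1, and adult replicate 3 was the lowest of all. The log2 fold change was -1.01 (± 0.25 SE at a limma adjusted p of 0.022), just past the thresholds. The call was lost without replicate 1 (-1.23, adjusted p = 0.0782), without replicate 2 (-1.12, adjusted p = 0.110) and without replicate 3 (-0.69). It was also lost without the block (adjusted p = 0.112), with scaling to detected mRNAs (-0.48) and with no filter on dim probes (adjusted p = 0.104), and the sign turned after normexp background correction (0.07). Of the somatic counterparts, 3 of 3 tested were lower in adult testis, or 4 of 4 with outlier-flagged spots kept, 2 of 3 with scaling to detected mRNAs and 1 of 3 after normexp background correction.

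For each pair the isoform shift is the change of the testis isoform minus the change of its somatic counterpart, which no scaling by a constant per array can move. With outlier-flagged spots left out, the shift on the log2 scale was at least 6.10 for Cox7b2 over Cox7b at its bound (1 neonatal and 2 adult arrays), 8.66 for Cox8c over Cox8a (1 and 2 arrays) and 4.01 for Cyct over Cycs (2 and 2 arrays). Every usable array of Cox6b1 was outlier-flagged, so this pair had no value of that kind. With the spots kept, Cox6b2 shifted over Cox6b1 by 5.84 on the probe for NM_183406 and by 4.04 on the probe for NM_183405. The kept values of the other pairs were at least 6.26, 8.88 and 4.45, in the same order. The testis isoform gained on its counterpart in each of the 4 pairs. With the spots kept, the smallest shift was the 4.04 for Cox6b2 (NM_183405) over Cox6b1, and Cyct over Cycs had 3.29 after normexp background correction.

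With outlier-flagged spots kept, the shift was seen in every replicate pair. Free of such spots were only replicate 1 for Cox7b2, replicate 2 for Cox8c and replicates 1 and 2 for Cyct, with their counterparts. For Cox6b2 (NM_183406) over Cox6b1 it was 5.61, 5.55 and 6.36 in replicates 1 to 3, and on the probe for NM_183405 4.03, 3.71 and 4.39. For Cox8c over Cox8a it was 8.38, 8.72 and 9.54. For Cox7b2 over Cox7b at its bound it was at least 6.12, 6.21 and 6.45, and for Cyct over Cycs 3.92, 4.11 and 5.33. Replicate 3, the pair on slide 2, had the highest value in each pair given without a bound. For Cyct over Cycs that value, 5.33, is not exact, since Cycs was not well above background on adult replicate 3. Within slide 1 the shifts in this order, with the spots kept, were 5.58, 3.87, 8.55, at least 6.17 and 4.01, and slide 2 holds replicate 3 alone. After normexp background correction the measured shift of Cox7b2 over Cox7b was 4.29. A two-sided exact permutation test over the 6 arrays gave p = 0.10 for each pair with the spots kept, the smallest p that 3 against 3 arrays allow, so the test cannot reach 0.05. The p of Cox7b2 over Cox7b was 0.10 on the measured values and with Cox7b at its bound. For Cyct over Cycs with outlier-flagged spots left out, the exact p was 0.333 over 2 and 2 arrays.

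**Figure D2:**
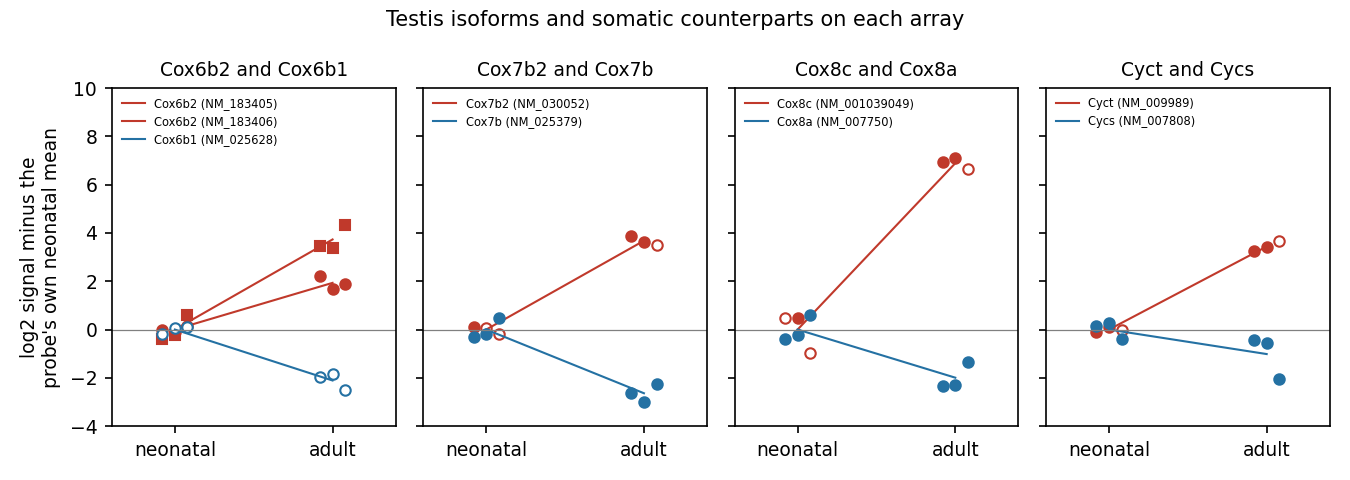
Normalized log2 signal of each testis isoform (red) and its somatic counterpart (blue) on every array, minus the mean of the same probe over the neonatal arrays. Each point is an array (open where the spot was outlier-flagged, squares for the Cox6b2 probe NM_183406) and lines join the means. Testis isoforms rose by 1.93 to 6.89, and counterparts other than Cox7b changed by -1.01 to -2.11. Cox7b is drawn at its measured change of -2.64, beside -2.58 at its bound. After normexp background correction Cycs had 0.07 and Cox7b -0.43.

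The other tissue isoforms of the chain split. Ndufa4l2, a relative of the complex IV subunit Ndufa4 that is induced by hypoxia, had -2.12, -1.87 and -2.39 in neonatal and 2.20, 2.15 and 2.07 in adult testis. The ages were far apart and tight within. Ndufa4l2 rose by a log2 fold change of 4.17 (± 0.16 SE at a limma adjusted p of 0.000575), the largest rise among members tested with outlier-flagged spots left out. Its relative Ndufa4 had 3.37, 3.29 and 1.72 in neonatal and 1.27, 1.26 and -0.12 in adult testis, with every spot outlier-flagged, and a log2 fold change of -1.99 with the spots kept (adjusted p = 0.000238). Here replicate 3 was the lowest at each age, and the ages still did not overlap.

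The isoforms known from heart and skeletal muscle were lower in adult testis. Cox8b had -3.99, -2.81 and -2.99 in neonatal testis and was not well above background on any adult array, so it was at least 11.9-fold lower in adult testis (log2 fold change -3.79, adjusted p = 0.000396 from limma, and -1.37 after normexp background correction). Cox6a2 had -2.29, -1.66 and -1.30 in neonatal and -4.73, -4.71 and -3.93 in adult testis, and fell, with a log2 fold change of -2.70 (adjusted p = 0.0004). This was -1.91 after normexp background correction and -2.17 with scaling to detected mRNAs, both under 5-fold. Cox7a1 had 1.86, 1.80 and 1.54 and -0.07, -0.27 and -0.06, and fell likewise (-2.0, adjusted p = 0.00191). None of these 3 genes had overlapping ages. Cox4i2, an isoform known from lung, had 0.16, 0.11 and 1.69 in neonatal and 0.74, 1.12 and 2.66 in adult testis, overlapping between ages but higher in the adult array of every pair. Its log2 fold change of 0.85 had an adjusted p of 0.00595 from limma (0.303 without the replicate block) but stayed under 2-fold, and it was 1.39 with scaling to detected mRNAs. Of the widely used counterparts, Cox8a, that of Cox8b, was called lower as given above. The others had log2 fold changes of 0.30 (Cox4i1), -0.09 (Cox6a1), -0.25 and -0.27 (the probes of Cox7a2l), none past the thresholds, and Cox7a2 lay at the floor on all 6 arrays.

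Markers of muscle and of other cells were read beside these isoforms. With outlier-flagged spots kept, 1 of 3 tested muscle probes was lower in adult testis and 0 were higher by limma. The summed scaled signal of Ckm, Acta1, Myh7 and Mb, with Myh7 the brightest, was 0.699, 0.787 and 0.939 in neonatal and 0.307, 0.292 and 0.291 in adult testis. Mb was well above background on 0 of 6 arrays, and Ckm on 1 adult array only. Ucp1, the marker of brown fat, lay at the floor on all 6 arrays. Hba-a1, a marker of red blood cells, had a scaled signal of 4.18, 5.27 and 1.81 in neonatal and 0.294, 0.302 and 0.174 in adult testis. The peritubular myoid markers (2 of 2 tested probes lower in adult testis), led by Myh11, summed to 21.4, 21.6 and 26.7 in neonatal and 4.69, 4.25 and 6.47 in adult testis, and Cnn1 among them was not well above background. Endothelial markers (4 of 4 lower), led by Cdh5, summed to 6.55, 7.56 and 13 and to 1.56, 1.22 and 2.31. Leydig cell markers (3 of 5 higher and 1 lower with outlier-flagged spots kept), led by Hsd3b1 in neonatal and Insl3 in adult testis, summed to 26.3, 28.2 and 25.2 and to 72.7, 56.3 and 54.1, and macrophage markers (0 of 2 called by limma), led by Csf1r, to 2.82, 2.78 and 2.73 and to 1.71, 1.84 and 2.40. Rhox5, Cd68 and Hbb-b1, listed for Sertoli cells, macrophages and red blood cells, were not matched. The part of these cells in the isoform values was not tested.

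Of 7 tested complex IV probes other than those of the testis and tissue isoforms and of the testis isoforms' somatic counterparts, 0 were called by limma at a fold of 2, and 2 had an adjusted p of at most 0.05 under that fold. These were Cox5a (log2 fold change 0.61) and Cox6c (0.52, or -0.27 with quantile normalization), named after their values were seen. The probes of Cox4i1, Cox6a1 and Cox7a2l are among the 7. The 7 values ranged from -0.27 to 0.61, with a median of 0.30, which is 0.70 above that of all mRNA probes. The offset was 0.092 with quantile normalization (0.012 with outlier-flagged spots kept) and 0.29 after normexp background correction. Quantile normalization called 2 of these 7 lower, and scaling to detected mRNAs called 2 of them higher. With the scaling used here, complex IV calls by symbol thus fell on testis and tissue isoforms and on somatic counterparts of the testis isoforms. Ndufa4, which the symbol places in complex I, was called lower with outlier-flagged spots kept.

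Complex I, the NADH dehydrogenase and the largest complex, had 27 tested probes, of which 3 were higher and 3 lower in adult testis. The median log2 fold change was 0.18, which is 0.58 above that of all mRNA probes, or 0.34 with quantile normalization and 0.16 after normexp background correction. With scaling to detected mRNAs 9 were higher and 1 lower, and with quantile normalization 2 were higher and 6 lower. Beside Ndufa4l2, which the symbol places here, the members that rose were Ndufa12 and Ndufc1, both accessory subunits. Ndufa12 had 3.09, 3.14 and 2.67 in neonatal and 4.78, 4.64 and 4.49 in adult testis and rose by a log2 fold change of 1.60 (± 0.15 SE at a limma adjusted p of 0.0034). Ndufc1 had 4.65, 4.68 and 4.70 and 6.10, 6.11 and 6.22 and rose by 1.44 (adjusted p = 0.00362), or 0.57 with quantile normalization, where the call was lost. In neither gene did the ages overlap, and both fitted values rest on the 2 pairs on slide 1.

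Lower in adult testis were Ndufv3, Ndufb11 and Ndufa2. Ndufb11, an X-linked accessory subunit, had 4.53, 4.67 and 4.65 in neonatal and 3.07, 2.91 and 3.00 in adult testis and fell, with a log2 fold change of -1.62 (adjusted p = 0.004 from limma). All neonatal arrays lay above all adult arrays. Ndufa2 had 1.5, 1.44 and 2.22 and 0.44, 0.21 and 0.71, a log2 fold change of -1.14 (adjusted p = 0.00715), or -0.59 with scaling to detected mRNAs, where the call was lost. Ndufv3, a subunit of the NADH-binding part, was split between its probes. On the probe for NM_030087 it had -3.0, -2.90 and -5.01 in neonatal testis and lay at the floor on every adult array. Neonatal replicate 1 was outlier-flagged, and in the other pairs the probe was at least 6.90-fold lower in adult testis (adjusted p = 0.0186). On the probe for NM_001083891 its log2 fold change was 0.08. The call on the former was lost without replicate 1 (adjusted p = 0.0627), with scaling to detected mRNAs (adjusted p = 0.0631), with no filter on dim probes (adjusted p = 0.176) and after normexp background correction (-0.88).

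Leaving out the Ndufv3 probe with a bound, the pair of complex I genes with the largest falls could be tested only with outlier-flagged spots kept. All 3 neonatal spots of each gene of the pair were outlier-flagged. Ndufs6, an accessory subunit that carries zinc, had 2.10, 1.07 and 3.57 in neonatal and -2.76, -2.67 and -1.43 in adult testis. The neonatal arrays differed widely among themselves and yet lay above every adult array. Its log2 fold change with the spots kept was -4.54 (± 0.30 SE at a limma adjusted p of 0.000284). Ndufs8, a core subunit with iron-sulphur clusters, had -0.80, -0.84 and -1.66 and -4.48, -6.00 and -5.51, a log2 fold change of -4.23 (± 0.34 SE at an adjusted p of 0.000507). Ndufa10 had -1.69 (adjusted p = 0.00342), also with 3 outlier-flagged neonatal spots. With the spots kept, 3 of 40 complex I probes were higher and 7 lower. The other complex I members that only this fit could test had log2 fold changes of 0.58 (Ndufa6), -0.07 (Ndufa8), -0.17 (Ndufb2), 0.70 (Ndufb5), -0.79 (Ndufc2), 0.37 and 0.33 (probes of Ndufs1), -0.45 (Ndufs3) and 0.66 (Ndufs4). All of these were under 2-fold.

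Complex II, succinate dehydrogenase, links the chain to the tricarboxylic acid cycle. Sdha, its flavoprotein, had 1.4, 1.51 and 1.79 in neonatal and 0.16, -0.64 and -0.15 in adult testis. Neonatal arrays lay above adult arrays, and adult replicate 2 was the lowest. Sdha fell, with a log2 fold change of -1.69 (± 0.29 SE at a limma adjusted p of 0.0151), a call lost with scaling to detected mRNAs (-1.15, adjusted p = 0.0708) and with no filter on dim probes (adjusted p = 0.142). The iron-sulphur subunit Sdhb had 4.61, 4.66 and 4.93 and 4.96, 4.91 and 5.28, overlapping between ages, with a log2 fold change of 0.30, and -0.62 with quantile normalization. The membrane anchors Sdhc and Sdhd had -0.64 and -0.21 with outlier-flagged spots kept, and replicate 3 was their lowest pair at each age.

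Complex III, which hands electrons from ubiquinol to cytochrome c, had 0 of 5 tested probes called by limma, while 2 had an adjusted p of at most 0.05 under a 2-fold change. These were the core protein Uqcrc1, with 3.93, 4.0 and 4.24 in neonatal and 5.0, 4.84 and 5.31 in adult testis (log2 fold change 0.95), and Uqcr11, with 4.11, 4.12 and 4.65 and 3.51, 3.33 and 3.93 (-0.70). In both genes the ages did not overlap. Uqcrc2, Uqcrb and Uqcrh had log2 fold changes of 0.15, 0.14 and -0.23, and each of these changed sign under another scaling. With outlier-flagged spots kept, 1 of 8 probes was called. This was Uqcrq, which had 3.93, 4.02 and 3.66 in neonatal and 5.64, 5.64 and 5.46 in adult testis, a log2 fold change of 1.71 (adjusted p = 0.000308), or 0.89 after quantile normalization. Uqcr10 had 0.69 and the Rieske protein Uqcrfs1 had -0.66 in the same fit. Quantile normalization called 2 of the 5 probes lower, and scaling to detected mRNAs called 1 higher.

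ATP synthase had 12 tested probes, 0 higher and 1 lower, with a median log2 fold change of -0.02, which is 0.38 above that of all mRNA probes. This offset turned to -0.13 with quantile normalization (-0.090 with outlier-flagged spots kept) and was 0.055 after normexp background correction. Of these probes 2, both for Atp5g1, gave no fold, and the median of the other 10 was -0.03. With quantile normalization 4 were lower, and with scaling to detected mRNAs 1 was higher and 0 lower. The lower probe was for Atp5c1, the central stalk subunit gamma, with transcript NM_001112738. It had 2.57, 2.74 and 2.59 in neonatal and 1.04, 0.12 and 0.45 in adult testis, with no overlap, and a log2 fold change of -2.08 (± 0.34 SE at a limma adjusted p of 0.0131). The call was lost with scaling to detected mRNAs (adjusted p = 0.0568) and with no filter on dim probes (adjusted p = 0.138). The probe for the other transcript, NM_020615, had 5.30, 5.16 and 4.33 and 4.80, 4.80 and 3.94, overlapping between ages, and -0.42 with outlier-flagged spots kept. The probes of this gene thus disagreed in size.

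The most positive tested values in ATP synthase were 0.52 (Atp5mpl), 0.45 (Atp5e) and 0.20 (Atp5k), and next to Atp5c1 the most negative were -0.38 (Atp5g3) and -0.30 (Atp5j2). None of these 5 passed the thresholds. When outlier-flagged spots were kept, Atp5g2, one of the genes for the c-ring subunit, had 5.01, 5.12 and 4.82 in neonatal and 3.49, 3.58 and 3.06 in adult testis and a log2 fold change of -1.61 (adjusted p = 0.000425 from limma). The other ATP synthase genes of that fit had -0.07 (Atp5a1), 0.86 (Atp5b), -0.76 (Atp5h), 0.19 (Atp5j) and -0.84 (Atp5pb). Both probes of Atp5g1, another c-ring gene, were well above background on 1 neonatal array only and lay at or near the floor on all 6, so they gave no fold. In complex IV, Cox5b had -0.22 in the same fit.

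Chromosome X held 3 members, of which Cox7b and Ndufb11 were lower in adult testis as given above. The remaining X-linked member, Ndufa1, had 4.54, 4.48 and 4.54 in neonatal and 4.29, 4.27 and 4.55 in adult testis, with overlapping ages. Its log2 fold change was -0.23 (adjusted p = 0.222 from limma), and 0.31 with scaling to detected mRNAs. A lower signal in adult testis was thus called for 2 of the 3 X-linked members with the scaling used here, for 1 after normexp background correction and for 3 with quantile normalization (2 with outlier-flagged spots kept). Of all tested mRNA probes 36.6%, 26.0%, 43.3% and 45.0% were lower in these fits.

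Genes that assemble, regulate or feed the chain are given for comparison. Of the assembly factors, 43 of 44 listed genes were on the array (Pet100 was not matched), and 3 of 28 tested probes were higher and 8 lower, with a median log2 fold change of -0.36. That is 0.04 above the median of all mRNA probes, or 0.024 below it with quantile normalization. With scaling to detected mRNAs 5 were higher and 3 lower, and with quantile normalization 3 and 12. Without the replicate block the lower calls of Tmem70 (NM_027415, limma adjusted p = 0.161) and Ndufaf1 (adjusted p = 0.0573) were lost. With outlier-flagged spots kept, 5 of 43 were higher and 14 lower. Ndufaf3, a complex I assembly factor, had 1.06, 1.16 and 1.77 in neonatal and 5.69, 5.65 and 6.32 in adult testis and rose by a log2 fold change of 4.56 (± 0.10 SE at a limma adjusted p of 0.000104). Its ages were far apart. Ndufaf7 rose by 1.35, and Timmdc1 fell, with a log2 fold change of -1.63. Ndufaf5 was at least 2.40-fold lower in adult testis, where it was not well above background, and its log2 fold change was -0.03 after normexp background correction.

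Among 16 genes known to regulate mitochondrial biogenesis or to maintain mitochondrial DNA, 0 of 14 tested probes were called higher and 5 lower, with a median of -0.54. These 5 are 35.7% of the probes, near the 36.6% of all mRNA probes. The median minus that of all mRNA probes was -0.14, or 0.083 with quantile normalization and -0.58 after normexp background correction. The median itself was 0.0041 with scaling to detected mRNAs and -0.90 with outlier-flagged spots kept. Scaling to detected mRNAs called 2 higher and 3 lower (21.4%, beside 25.5% of all mRNA probes). Gabpb1, a partner of the ETS factor Gabpa, had 1.48, 1.52 and 2.01 in neonatal and -0.46, -0.65 and -0.06 in adult testis and a log2 fold change of -2.06. Ssbp1, which binds single-stranded mitochondrial DNA, had -1.82 on the probe for NM_212468, or -0.74 after normexp background correction. The most positive values tested with outlier-flagged spots left out were 0.89 (Esrra) and 0.58 (Polg), under the thresholds. When outlier-flagged spots were kept, 1 of 18 probes was higher and 8 were lower, and log2 fold changes ranged more widely, from -3.75 to 2.47.

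Tricarboxylic acid cycle enzymes, which supply NADH and succinate, had a median log2 fold change of -1.66 over 6 tested probes of 14 genes, 1.26 below that of all mRNA probes. Of the 6, 0 were called higher by limma and 5 lower, or 1 and 4 with scaling to detected mRNAs. When outlier-flagged spots were kept, 2 of 14 were higher and 8 lower, or 0 and 8 by limma with quantile normalization. With these spots kept and the scaling used here, log2 fold changes ranged from -2.99 to 1.2, wider than those of the genes named next. Idh2 had 3.33, 3.59 and 3.85 in neonatal and 0.76, 0.90 and 0.93 in adult testis, a log2 fold change of -2.63, and Idh3g had -2.08. Idh3b had 0.71, or -0.13 with quantile normalization, and Suclg2 had -1.47, or -0.92 with scaling to detected mRNAs, and an adjusted p of 0.0718 with no filter on dim probes. The cycle enzymes thus differed from the respiratory chain subunits in their median, a difference that was not tested.

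Other isoform pairs of germ cell metabolism were read in the same way. Slc25a31, the ADP/ATP carrier known from germ cells, had -3.59, -3.78 and -3.74 in neonatal and -1.43, -1.49 and -1.48 in adult testis and rose by a log2 fold change of 2.24 (adjusted p = 0.000234 from limma). The somatic carriers went the other way, with -1.72 for Slc25a5 and -1.66 for Slc25a4, the latter with all 6 spots outlier-flagged and kept. Ldhc, the lactate dehydrogenase of germ cells, had 2.54, 2.53 and 4.22 and 4.44, 4.11 and 5.77, higher in the adult array of each pair, and rose by 1.74 (adjusted p = 0.00358). Its somatic relatives split, since Ldha rose by 2.69 and 2.77 on its probes and Ldhb had -1.43, or -0.89 with scaling to detected mRNAs. Pdha1, the X-linked subunit of pyruvate dehydrogenase, fell, with a log2 fold change of -2.25, and its testis form Pdha2 was well above background on 0 of 6 arrays.

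Promoter sequences of the members were read for motifs. The sequences, 300 bases around the start of each gene, are from RefSeq on GRCm38.p6, and 70 of the 86 member genes matched, with 75 promoters. Both strands were searched for motifs of factors known from nuclear genes of the respiratory chain. The NRF1 motif was in 24.0% of the member promoters and 4.6% of all 32851 promoters, and the ETS motif of GABP (CCGGAAG) in 22.7% and 8.86%. YY1 (AAGATGGC) was in 13.3% and 2.75%, and ERR (AAGGTCA) in 10.7% and 4.72%. The cyclic AMP response element CRE (TGACGTCA) was in 6.67% and 1.79%, and its shorter form (TGACGT), which every CRE holds on each strand, in 14.7% and 7.51%. A match describes the letters only and is not a binding site.

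The promoters of the isoform pairs are shown so that the testis and somatic genes can be set side by side, with motif matches in capitals. Those of Cox6b1 (chr7:30626065-30626364, minus strand) and Cox8a (chr19:7217567-7217866, minus strand) held the ETS motif and the shorter CRE form, and that of Cycs (chr6:50566520-50566819, minus strand) held a CRE and another copy of the shorter form. No motif searched was in those of Cox7b (chrX:106015450-106015749, plus strand), Cox6b2 (chr7:4753045-4753344, minus strand), Cox7b2 (chr5:71548156-71548455, minus strand) and Cyct (chr2:76360404-76360703, minus strand). Cox8c had no entry in the table.
Cox6b1: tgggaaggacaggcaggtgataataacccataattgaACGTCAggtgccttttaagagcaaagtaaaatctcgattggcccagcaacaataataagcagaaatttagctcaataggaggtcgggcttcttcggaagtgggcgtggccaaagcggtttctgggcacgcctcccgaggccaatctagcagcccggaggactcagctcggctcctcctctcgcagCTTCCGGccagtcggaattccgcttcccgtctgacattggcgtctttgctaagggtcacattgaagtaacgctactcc
Cox6b2: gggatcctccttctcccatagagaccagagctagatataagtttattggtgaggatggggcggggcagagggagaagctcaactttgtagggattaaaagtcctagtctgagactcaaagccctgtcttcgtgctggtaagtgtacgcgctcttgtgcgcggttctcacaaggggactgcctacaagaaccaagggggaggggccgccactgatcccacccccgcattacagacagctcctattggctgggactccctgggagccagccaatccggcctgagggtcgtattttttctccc
Cox7b: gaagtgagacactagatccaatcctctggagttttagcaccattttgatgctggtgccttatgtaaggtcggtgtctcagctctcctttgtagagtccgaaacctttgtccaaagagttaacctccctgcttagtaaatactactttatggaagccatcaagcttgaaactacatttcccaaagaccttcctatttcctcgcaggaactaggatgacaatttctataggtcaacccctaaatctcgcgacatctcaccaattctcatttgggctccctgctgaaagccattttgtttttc
Cox7b2: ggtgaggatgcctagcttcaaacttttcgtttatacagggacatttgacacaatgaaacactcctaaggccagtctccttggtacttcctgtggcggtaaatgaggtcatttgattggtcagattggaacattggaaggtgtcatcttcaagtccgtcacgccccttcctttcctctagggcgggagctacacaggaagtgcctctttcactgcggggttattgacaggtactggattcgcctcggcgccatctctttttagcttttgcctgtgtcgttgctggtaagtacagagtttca
Cox8a: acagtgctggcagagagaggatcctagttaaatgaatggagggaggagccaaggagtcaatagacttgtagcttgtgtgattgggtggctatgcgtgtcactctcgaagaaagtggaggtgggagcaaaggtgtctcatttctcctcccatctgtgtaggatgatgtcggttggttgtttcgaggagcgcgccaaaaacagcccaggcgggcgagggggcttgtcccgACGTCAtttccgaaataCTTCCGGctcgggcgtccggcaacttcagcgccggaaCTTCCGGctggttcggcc
Cycs: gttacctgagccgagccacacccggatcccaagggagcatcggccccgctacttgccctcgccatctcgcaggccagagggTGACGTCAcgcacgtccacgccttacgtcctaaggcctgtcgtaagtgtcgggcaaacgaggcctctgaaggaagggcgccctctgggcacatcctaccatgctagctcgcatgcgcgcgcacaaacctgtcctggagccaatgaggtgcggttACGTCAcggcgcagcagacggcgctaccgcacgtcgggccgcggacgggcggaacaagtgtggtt
Cyct: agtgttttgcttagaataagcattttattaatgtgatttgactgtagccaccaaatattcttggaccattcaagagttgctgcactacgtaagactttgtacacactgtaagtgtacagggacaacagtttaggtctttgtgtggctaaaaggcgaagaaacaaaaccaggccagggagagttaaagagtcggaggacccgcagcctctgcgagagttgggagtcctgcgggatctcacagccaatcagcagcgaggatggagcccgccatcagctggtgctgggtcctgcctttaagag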

How the data were processed

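Whole-testis RNA of both ages was read on 6 arrays in 1 colour. Scanner files deposited by the authors give spot intensity, background-subtracted and detrended by Agilent Feature Extraction 10.5.1.1 per the submitters' processing notes, with no normalization between arrays. The authors also deposited log2 values for 26771 probes (18506 mRNA probes). The methods name quantile normalization, but 100% of these log2 values on each array equal, within 0.001, the floored log2 signal from the scanner minus a constant of the array. The column medians were 1.28, 1.30 and 1.27 for the neonatal and 1.20, 1.27 and 1.22 for the adult arrays, and each log2 value is higher where the scanner signal of the spot is higher. These values served as an alternative.

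Each lncRNA and mRNA probe had 1 spot, control spots were left out, and 85 probes of other designs were not used. Signals were scaled to the 75th percentile of the array, floored at the highest scaled value of a signal of 5, and log2-transformed. Of 14717 lncRNA and 22464 mRNA probes, limma 3.58.1 in R 4.3.3 fitted the 24517 that passed the filters, with Benjamini-Hochberg adjustment over both classes together (prior degrees of freedom 2.07). The fit was tested on simulated data, and no result given here rests on that test. Python 3.11.15 with numpy 2.4.6, pandas 2.3.3, scipy 1.17.1 and matplotlib 3.10.9 did the rest. The RefSeq table on GRCm38.p6 named 21901 of 22464 mRNA probes (97.5%), and 6 member genes had several probes, each described by itself. No spot was saturated, and the dimmest spot well above background ranged from 6.09 to 24 among arrays.

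The methods used a paired test, hence the replicate block. Deviations of same-numbered arrays from the means of their age correlated with r of 0.401, 0.339 and 0.681 for replicates 1 to 3, across probes, which are not independent. Arrays of different number on the same slide correlated with 0.374 to 0.432, so pairing and slide cannot be told apart. The arrays correlated with r of 0.975 to 0.994 within an age and 0.659 to 0.682 between ages.

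The members, lists and markers were chosen with earlier results of these data known. Named genes were the isoforms and their counterparts, complexes II and III, X-linked and untested members, every call at a fold of 5, and the 3 most positive and 3 most negative members of complexes I and IV and ATP synthase. Of each comparison list the 2 most positive and 2 most negative tested genes were named, and every gene of the other isoform pairs. Tmem70 and Ndufaf1 were named because the block changed their calls. A fold of 5 is the threshold of the methods. Alternatives were no floor, quantile normalization, a shift to the median, scaling to detected mRNAs, the authors' log2 values, normexp (offset 50) on gMedianSignal because the files have no gMeanSignal column, keeping outlier-flagged spots, no or a stricter filter, a fit without the block or blocked by slide, each replicate left out, an intensity trend in the prior, the methods' t-test and 1 probe per gene. Quantile normalization, leaving out replicates and the fit without the block, each with outlier-flagged spots kept, were chosen after seeing the data. The protein identity of the isoform pairs was not analysed here.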

Additional observations from a re-analysis of the deposited data

How the results depend on the processing

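Signal over background limits what can be read of dim members. Ndufa13, Cox7a2 and both probes of Atp5g1 gave no fold, and Cox7b, Cox8b and 1 probe of Ndufv3 have only bounds. All 6 higher and all 11 lower members remained called with a shift to the median, the authors' log2 values, no common floor, the slide as a block, a stricter filter, an intensity trend and outlier-flagged spots kept. Without the replicate block 6 were higher and 10 lower, and Cycs was the call lost (adjusted p = 0.112). With outlier-flagged spots kept, the fit without the block lost Cycs and Ldhc (adjusted p = 0.0514). Apart from Tmem70 and Ndufaf1 as given above, the block changed no other call of a named gene. With 1 probe per gene 5 were higher and 9 lower. The shift of Cox6b2 over Cox6b1 had no value where outlier-flagged spots were left out, that of Cox7b2 over Cox7b none without replicate 1, and that of Cox8c over Cox8a none without replicate 2.

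Counts at a fold of 2 moved as follows, and the cause was not tested. Scaling to detected mRNAs gave 17 higher and 6 lower members, quantile normalization 21 lower and outlier-flagged spots kept 17 lower. No filter on dim probes gave 7 lower, and the methods' t-test 6 lower without adjustment and 4 after Benjamini-Hochberg adjustment. Leaving out 1 replicate gave 2 to 6 higher and 4 to 9 lower members, with 15 to 62 testable. For no filter, the t-test, 1 probe per gene and left-out replicates, the share called over all mRNA probes is not given. Counts under these settings, here and elsewhere, are therefore not a result about the members. At a fold of 5, scaling to detected mRNAs gave 1 lower member, normexp background correction 0 by limma, and outlier-flagged spots kept 5 higher. Leaving out 1 replicate gave 1 to 3 higher there. The members' median log2 fold change was -0.62 with quantile normalization, 0.64 with scaling to detected mRNAs, -0.13 with a shift to the median and -0.17 with the authors' log2 values, and between -0.32 and 0.11 without 1 replicate. The shift of Cox7b2 over Cox7b was 4.29 after normexp background correction.

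Alternatives chosen after seeing the data kept the outlier-flagged spots. Quantile normalization then gave 31 lower members at a fold of 2, 5 higher and 8 lower at a fold of 5, a median of -0.58 and a shift of 4.40 for Cox6b2 (NM_183405) over Cox6b1. Leaving out 1 replicate gave 9 to 10 higher and 16 to 17 lower members at a fold of 2, and 5 higher and 6 to 7 lower at a fold of 5. The fit without the replicate block gave 5 higher at a fold of 5.

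Some log2 fold changes turned in sign, and the cause was not tested. Quantile normalization gave -0.47 (Atp5e), -0.68 (Atp5k), -0.31 (Atp5mpl), -0.64 (Cox4i1), -0.13 (Idh3b), -0.62 (Sdhb) and -0.76 (Uqcrb), and with outlier-flagged spots kept -0.45 (Atp5e), -0.69 (Atp5k), -0.35 (Atp5mpl), -0.59 (Cox4i1), -0.095 (Idh3b), -0.032 (Ndufa6), -0.031 (Ndufs1), -0.084 (Ndufs1), -0.56 (Sdhb), -0.042 (Uqcr10) and -0.84 (Uqcrb). Scaling to detected mRNAs gave 0.16 (Atp5g3), 0.24 (Atp5j2), 0.46 (Cox6a1), 0.30 (Cox7a2l), 0.27 (Cox7a2l), 0.31 (Ndufa1) and 0.31 (Uqcrh). A shift to the median gave -0.057 (Atp5k), -0.12 (Uqcrb) and -0.11 (Uqcrc2), and the authors' log2 values -0.062 (Atp5k), -0.12 (Uqcrb) and -0.12 (Uqcrc2). Normexp background correction gave 0.065 (Cox6a1) and 0.068 (Cycs), and the slide as a block 0.051 (Cox5b). For Uqcrb, outlier-flagged spots kept gave -0.0036, with and without the replicate block. Kept spots with 1 replicate left out gave -0.17 to 0.059 for Atp5a1, -0.089 to 0.51 for Atp5j, -0.31 to 0.23 for Ndufa8, -0.39 to 0.18 for Ndufb2 and -0.14 to 0.14 for Uqcrb, which had -0.013 without replicate 2.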
